A study of Mus musculus with 6 samples.

Results

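The p53 pathway was followed as 32 mouse genes, namely Trp53 itself, its inhibitors Mdm2 and Mdm4, and 29 genes known as p53 targets. They were taken from the table of 55416 Ensembl genes by matching symbols to identifiers, and each of the 32 matched 1 row. RNA was sequenced from MB21 cells, a mouse medulloblastoma line whose genotype label gives a mutation in ptch and no other allele, so the Trp53 genotype is not stated. The DS38 group had 3 libraries of cells given 10 uM DS-1-38, a derivative of benzarone, for 1 day, and the DMSO group had 3 libraries of cells given the vehicle for 1 day. Both groups were the same line, grown without attachment in DMEM/F12 with B27. Per the series title, the compound is being developed against SHH-medulloblastoma, tumours driven by Sonic hedgehog signalling. The series' design text names 5 days, whereas its title, the sample titles and the treatment protocol give 1 day, which is used here. Whether the 3 libraries of a group came from separate cultures is not stated, and the p-values below then reflect only how these libraries vary, which may be technical.

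The p53 protein is a transcription factor that cells hold at a low level through MDM2, a ubiquitin ligase that marks it for destruction, and MDM4, which blocks its activity. DNA damage, oncogene activity and failures of ribosome assembly stabilise it, and it then raises genes that arrest the cell cycle, start apoptosis, repair DNA and adjust metabolism. Mdm2 is itself a target, which closes a feedback loop. In SHH medulloblastoma, p53 status is known to divide tumours of different outcome. Much of p53's activation happens to the protein, which RNA counts do not measure.

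After 1 day of DS38 the listed members did not move one way. Cdkn1a, a p53 target that is not among them, was raised 1.82-fold. It belongs to a list of further targets, described below, of which 9 rose and 2 fell among 36 tested (30.6% called, against 24.5% of all genes). Of the 32 members, 30 passed the filter on low counts, and 5 of these rose (Fdxr, Xpc, Ddit4, Bbc3 and Ddb2) while 4 fell (Btg2, Aen, Plk3 and Sesn3). Changes were small: the risers gained 13.6% to 27.5% and the fallers lost at most 14.4%. The remaining 21 tested members did not pass, among them Trp53, Mdm2, Mdm4, Ccng1, Zmat3, Sesn1, Eda2r and Trp53inp1. Each gene was tested with edgeR's quasi-likelihood test (two-sided), and a gene passed when its Benjamini-Hochberg adjusted p, taken across the 17679 genes kept by the filter, was under 0.05. By the same rule 24.5% of all genes were called, 12.9% higher and 11.7% lower, so 9 of 30 members (30.0%) lay near the background. The median log2 fold change of the tested members was 0.03, against 0.004 over all tested genes. With library size as the only scaling the split was 8 higher and 3 lower in place of 5 and 4, and 27.3% of all genes were called (18.6% higher, 8.73% lower). Without DS38 replicate 3 it was 5 and 2, with 19.6% of all genes called (10.2% higher, 9.44% lower).

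**Figure D1:**
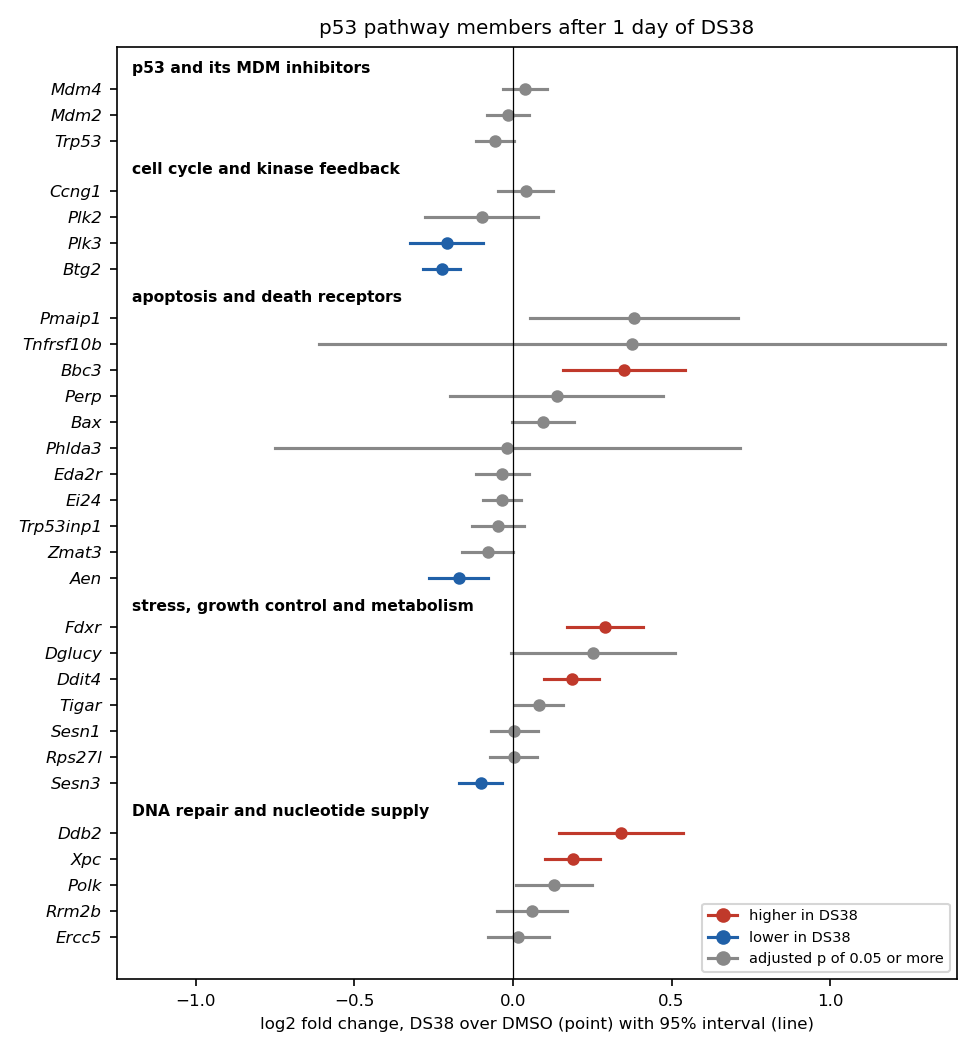
Log2 fold change of DS38 over DMSO for the 30 tested members, ordered by role, with 95% intervals (3 libraries a group). Bbc3, Fdxr, Ddit4, Ddb2 and Xpc lie right of 0 and Btg2, Plk3, Aen and Sesn3 left of it, while the intervals of Mdm2, Mdm4 and Sesn1 are narrow and span 0.

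Library totals were 60434089 to 84044428 counts in DS38 and 38840296 to 50014681 in DMSO, so every DS38 library was the deeper. The first principal component (48.3% of the variance) separated the groups, and the second (17.9%) set DMSO replicate 3 apart from the other libraries. Markers of granule neuron progenitors, the cells from which such tumours arise, were abundant, with Atoh1 at 406 to 417 CPM (counts scaled to library size) in DS38 and 320 to 336 CPM in DMSO. Of 7 such markers 2 rose and 4 fell, and their summed level was 2034 to 2064 TPM in DS38 against 1905 to 1962 TPM in DMSO. The 5 macrophage and microglia markers summed to 4.42 to 6.03 TPM in DS38 and 4.46 to 5.46 TPM in DMSO, almost all from Cd68, and the 4 endothelial markers to at most 0.931 TPM in DS38 and 1.03 TPM in DMSO, with Kdr at 0 counts throughout. The 5 astrocyte markers (72.3 to 74.4 TPM in DS38, 71.3 to 74.5 TPM in DMSO) were mostly Slc1a3, with Aqp4 at 0 in every DMSO library. The 6 fibroblast markers (30.2 to 31.8 TPM in DS38, 29.7 to 30.7 TPM in DMSO) were mostly Pdgfra. The 5 oligodendrocyte lineage markers, mostly Olig1, summed to 43.7 to 49.1 TPM in DS38 and 38.7 to 40.8 TPM in DMSO. Of these, 1 of the 4 tested rose, as did 1 of 3 tested for astrocytes (Gfap) and 1 of 4 tested for fibroblasts (Col1a1). Col1a1 was low, with a mean of 0.822 CPM in DS38 and 0.373 CPM in DMSO. Over all tested genes 12.9% rose and 11.7% fell. The part of these marker differences in the results below was not tested. In RNA from a whole culture, fewer cells of a kind and less RNA per cell cannot be told apart.

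Levels of different genes were compared as TPM, which scales counts by gene length as well as library size. Rps27l, a ribosomal protein-like p53 target, was the most abundant member at 364 ± 14.3 TPM in DS38 and 357 ± 13.8 TPM in DMSO (SD, n = 3 each). Its sequence is close to that of Rps27 and of pseudogenes, so its count is uncertain. Next in DMSO came Btg2 and Ddit4, whose libraries overlapped in level there. In DS38 they separated: Ddit4 was at 260 to 305 TPM and Btg2 at 212 to 218 TPM. Trp53 followed at 197 ± 0.819 TPM in DS38 and 201 ± 5.74 TPM in DMSO. Mdm2 was at 57.0 ± 1.16 TPM in DS38 and 56.6 ± 0.347 TPM in DMSO, and Mdm4 at 42.0 ± 1.6 TPM in DS38 and 40.1 ± 1.81 TPM in DMSO. At the low end Phlda3 averaged 0.883 TPM in DS38 and 0.907 TPM in DMSO, and Tnfrsf10b 0.152 TPM in DS38 and 0.119 TPM in DMSO. Neighbours in the order whose DMSO libraries overlapped included Tigar with Mdm2, Eda2r with Zmat3, Trp53inp1 with Plk3, and Perp with Dglucy.

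**Figure D2:**
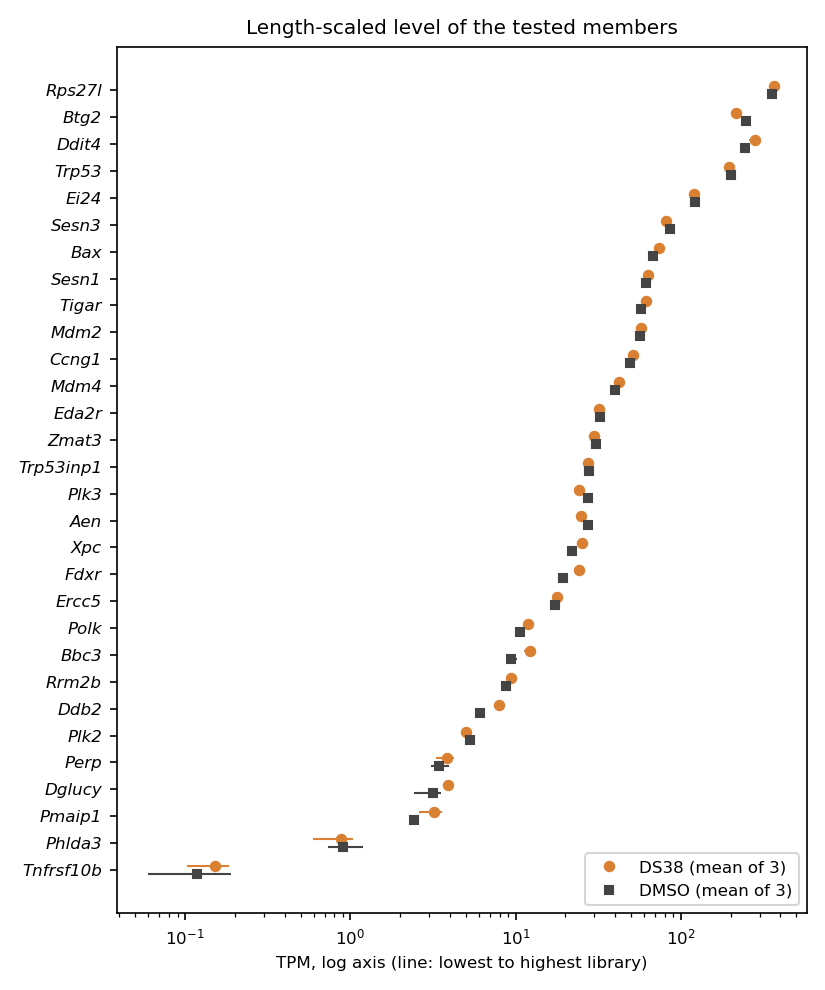
Level of the 30 tested members in TPM on a log axis, with means of 3 DS38 (circles) and 3 DMSO (squares) libraries and lines from the lowest to the highest library. The order spans from Rps27l at 364 TPM in DS38 and 357 TPM in DMSO down to Tnfrsf10b at 0.152 TPM in DS38 and 0.119 TPM in DMSO.

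Trp53 RNA was at 196, 196 and 196 CPM in DS38 replicates 1 to 3, against 201, 200.3 and 209.96 CPM in the DMSO replicates (TMM-normalized, as are all CPM values here). The groups did not overlap, yet the difference of -3.88% (95% interval -7.75% to 0.147%) did not pass (edgeR adjusted p = 0.155). A fit with an offset for gene length, which was added once the data had been seen, called Trp53 lower (log2 fold change -0.09; edgeR adjusted p = 0.00769). Mdm2 was at 70.9, 73.0 and 70.3 CPM in DS38 and 72.8, 72.3 and 71.4 CPM in DMSO. Those libraries were interleaved, and the interval of the difference in this feedback target was -5.58% to 3.53% (edgeR adjusted p = 0.756). Mdm4 had 147, 156 and 156 CPM in DS38 and 145, 156 and 145 CPM in DMSO, a difference of 2.68% (interval -2.21% to 7.82%; edgeR adjusted p = 0.452). It passed, as higher, with the length correction (log2 fold change 0.11; edgeR adjusted p = 0.0132), and its gene model has 14798 bases.

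Among the cell cycle members, Btg2, an antiproliferative cofactor of deadenylation, had the smallest p of all 30. It was at 148, 147 and 143 CPM in DS38 and 171, 169 and 171 CPM in DMSO, without overlap. Btg2 fell by 0.22 ± 0.028 on the log2 scale (SE), with an edgeR adjusted p of 4.895e-06, and it passed in all 16 alternatives. Plk3, a stress-responsive polo-like kinase, was at 15, 14.6 and 15.6 CPM in DS38 and 16.8, 17.8 and 17.8 CPM in DMSO. All 3 DS38 libraries lay below all 3 DMSO libraries, and it fell (log2 fold change -0.21 ± 0.055; edgeR adjusted p = 0.00776). Ccng1, the cyclin G1 gene and a standard p53 target, was at 44.2 ± 2.51 CPM in DS38 and 43.05 ± 0.566 CPM in DMSO and did not pass (edgeR adjusted p = 0.534). Plk2, a related kinase, was at 5.57 ± 0.150 CPM in DS38 and 5.98 ± 0.320 CPM in DMSO (edgeR adjusted p = 0.441). Of these 4 members, then, 2 fell and 0 rose, where 11.7% of all genes fell and 12.9% rose.

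Apoptosis and death receptor members were the largest group, with 11 of 12 tested, 1 higher and 1 lower. Over all genes 12.9% were higher and 11.7% lower. Bbc3 encodes PUMA, a BH3-only protein that frees BAX and BAK from their inhibitors. It was at 6.68, 6.59 and 5.86 CPM in DS38 and 4.67, 4.95 and 5.40 CPM in DMSO, so the lowest DS38 library lay just above the highest DMSO one. The log2 fold change was 0.35 ± 0.092 (SE; edgeR adjusted p = 0.00744), and it fell to 0.25 (edgeR adjusted p = 0.0753) once every library was thinned to the smallest total. Pmaip1, which encodes the BH3-only protein NOXA, was at 2.28, 1.75 and 2.41 CPM in DS38 and 1.56, 1.75 and 1.68 CPM in DMSO. DS38 replicate 2 matched the DMSO libraries, and the gain of 30.2% (interval 3.80% to 63.3%) did not pass, with an edgeR adjusted p of 0.0835, although it did without that library (log2 fold change 0.50; edgeR adjusted p = 0.0344). Aen, a nuclease that p53 induces in apoptosis, fell. Its libraries held 37.7, 35.0 and 33.3 CPM in DS38 and 39.0, 39.9 and 40.5 CPM in DMSO, which did not overlap (log2 fold change -0.17 ± 0.045; edgeR adjusted p = 0.00733). Without DS38 replicate 3 that call was lost (-0.13; edgeR adjusted p = 0.0665).

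The 9 other tested members of this group did not pass, Pmaip1 included. Bax, the pore-forming effector of apoptosis, was at 28.5 ± 1.23 CPM in DS38 and 26.7 ± 0.806 CPM in DMSO (edgeR adjusted p = 0.150), and passed with library size as the only scaling (edgeR adjusted p = 0.0481). Zmat3, an RNA-binding protein, was at 83.6 ± 1.39 CPM in DS38 and 88.2 ± 6.11 CPM in DMSO, where replicate 3 was the lowest library of all 6. Without that library Zmat3 passed as lower (log2 fold change -0.14; edgeR adjusted p = 0.0014). Ei24, Eda2r and Trp53inp1 (an endoplasmic reticulum protein, a receptor of the TNF family and an autophagy-linked cofactor of p53) differed by -2.36%, -2.29% and -3.22%. Perp, a desmosomal membrane protein, Phlda3, an inhibitor of AKT, and Tnfrsf10b, a TRAIL receptor, had 638, 126 and 67 counts in all libraries together. Their intervals were wide, for Phlda3 -40.6% to 64.2%. Fas, the death receptor, had 1 count in the 3 DS38 libraries together and 0 in DMSO, which allows up to 0.0218 CPM over the DMSO group, and was not tested. Such limits cover counting error only.

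**Figure D3:**
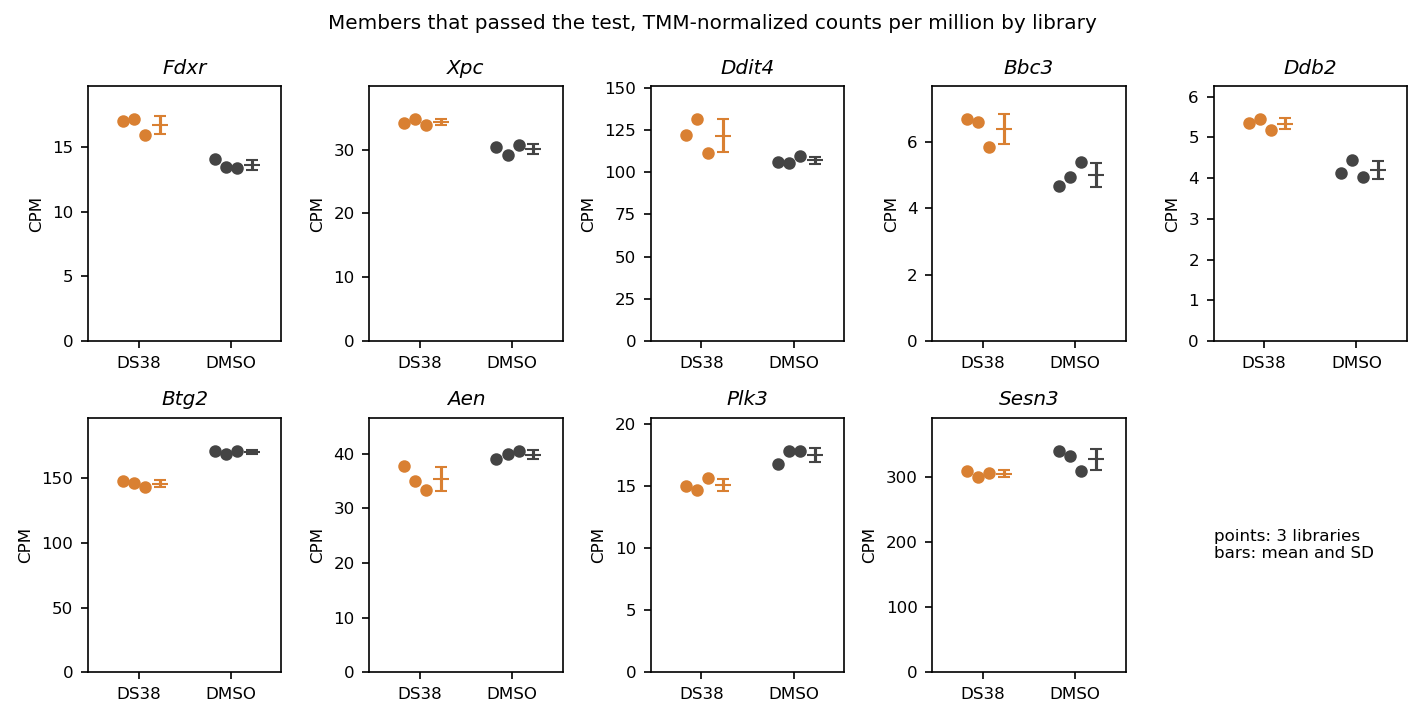
TMM-normalized CPM in each library for the 9 members that passed, 5 higher (Fdxr, Xpc, Ddit4, Bbc3, Ddb2) and 4 lower (Btg2, Aen, Plk3, Sesn3) in DS38, with mean and SD of 3 libraries. Axes start at 0, and only the Sesn3 panel shows overlapping groups.

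Members that act on metabolism and growth split. Fdxr, ferredoxin reductase, passes electrons to mitochondrial cytochrome P450 enzymes and to iron-sulfur cluster assembly. It had 17.0, 17.1 and 15.9 CPM in DS38 and 14.1, 13.4 and 13.4 CPM in DMSO, a clear gap between groups. It rose by 22.3% (log2 fold change 0.29 ± 0.058, SE; edgeR adjusted p = 7.662e-04), and its call held in all 16 alternatives. Ddit4 encodes REDD1, an inhibitor of mTORC1 that is induced by p53, hypoxia and ATF4. The 3 DS38 libraries were spread over 122, 132 and 112 CPM, against 106, 106 and 109.6 CPM in DMSO. The lowest of them was thus only slightly above DMSO (log2 fold change 0.18 ± 0.042; edgeR adjusted p = 0.00251). The sestrins, which restrain mTORC1, differed among themselves. Sesn1 was at 61.8 ± 1.26 CPM in DS38 and 61.7 ± 2.5 CPM in DMSO (edgeR adjusted p = 0.95).

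Sesn3, more often described as a FOXO target, was at 310.2, 300.3 and 306 CPM in DS38 and 341, 333 and 309 CPM in DMSO. DMSO replicate 3 lay within the DS38 range, so the groups overlapped, and the fall was small (log2 fold change -0.10 ± 0.033; edgeR adjusted p = 0.0263). That call was lost in 7 of 16 alternatives, among them each DS38 replicate left out, DMSO replicates 1 and 2 left out, and the length correction (-0.03; edgeR adjusted p = 0.477). Tigar, which lowers fructose-2,6-bisphosphate, was at 56.1, 55.0 and 55.0 CPM in DS38 and 53.5, 50.1 and 53.3 CPM in DMSO. The groups did not overlap, but the gain of 5.85% did not pass (edgeR adjusted p = 0.104). Dglucy, D-glutamate cyclase, was at 4.40 ± 0.296 CPM in DS38 and 3.65 ± 0.747 CPM in DMSO (edgeR adjusted p = 0.147), with DMSO replicate 3 well below the rest. Rps27l differed by 0.129% (interval -4.89% to 5.41%). Gdf15, a stress-induced secreted cytokine, was scarce, with 13, 4 and 9 counts in DS38 replicates 1 to 3 and 3, 0 and 1 counts in DMSO. The groups did not overlap, but the lowest DS38 library (0.0652 CPM) lay just above the highest DMSO one (0.0614 CPM). Gdf15 did not reach the filter. In a fit with no filter its log2 fold change was 1.88, on 26 counts in DS38 and 4 in DMSO, and it did not pass (edgeR adjusted p = 0.192).

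DNA repair members held 2 risers and no faller among 5, where 12.9% of all genes rose and 11.7% fell. Both risers act in damage recognition during nucleotide excision repair. Xpc, which senses distorted DNA, was at 34.2, 34.8 and 33.9 CPM in DS38 and 30.4, 29.2 and 30.7 CPM in DMSO. The groups were well apart for their spread (log2 fold change 0.19 ± 0.041, SE; edgeR adjusted p = 0.00188). Ddb2, the ultraviolet damage-binding subunit, was at 5.37, 5.45 and 5.19 CPM in DS38 and 4.11, 4.45 and 4.03 CPM in DMSO (log2 fold change 0.34 ± 0.094; edgeR adjusted p = 0.0101). In the GENCODE M21 annotation of GRCm38, 23.8% of Ddb2 exon bases overlap exons of Acp2 on the opposite strand. Without a known strand setting these reads cannot be told apart, and Acp2 itself differed by 6.75% (edgeR adjusted p = 0.124). Polk, a translesion polymerase, was at 15.4, 16.5 and 16.9 CPM in DS38 and 15, 15.3 and 14.3 CPM in DMSO. These did not overlap, and the gain of 9.42% did not pass (edgeR adjusted p = 0.110). Ercc5, the excision nuclease XPG, differed by 1.17% (interval -5.33% to 8.12%) and Rrm2b, the p53-inducible ribonucleotide reductase subunit, by 4.20% (interval -3.46% to 12.5%).

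Over all 30 tested members, groups did not overlap in 11, 8 of them called and 3 not (Trp53, Polk and Tigar), against 38.6% of all tested genes. Of the 21 members that did not pass, 16 had a 95% interval that lay wholly within 20% of no change, a width chosen after seeing the data. The intervals of the 5 others (Pmaip1, Perp, Dglucy, Phlda3 and Tnfrsf10b) reached beyond it. In simulated counts for this comparison with 17679 genes, edgeR called 34 of 50 genes changed by 1.2-fold and 43 of 50 changed by 1.5-fold.

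**Figure D4:**
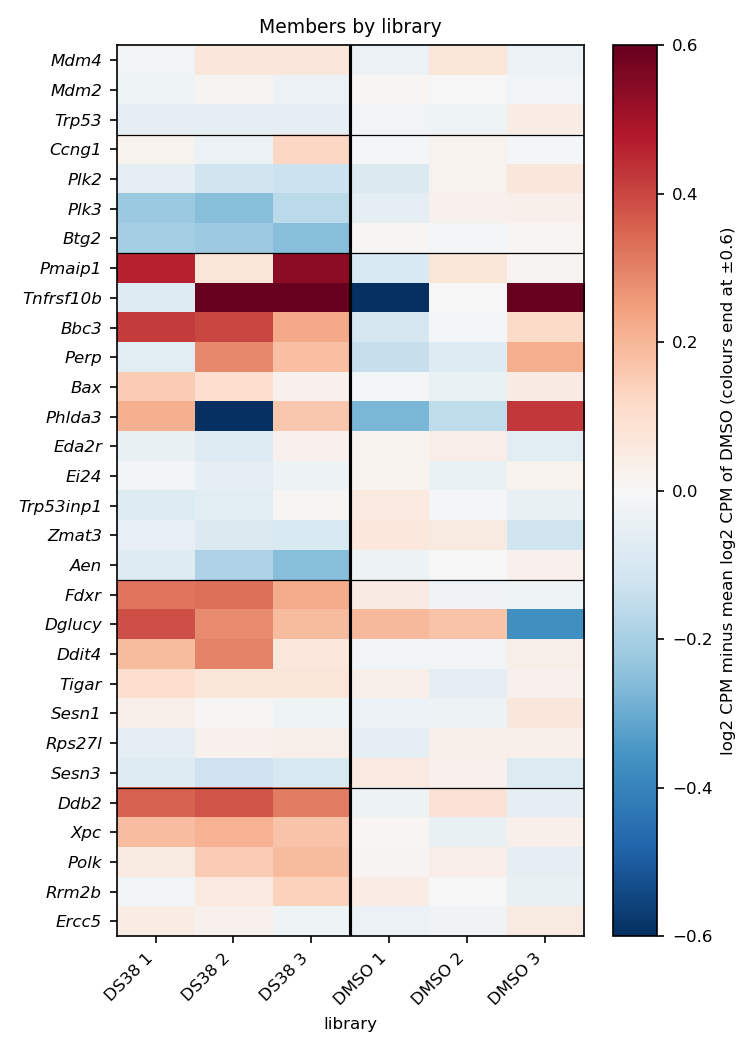
Each tested member in each library, as log2 CPM minus the mean log2 CPM of the DMSO libraries, with DS38 libraries left of the line and roles divided by thin lines. Bbc3, Fdxr and Ddb2 are above 0 and Btg2 and Plk3 below 0 in all 3 DS38 libraries, and DMSO 3 differs from DMSO 1 and 2 in Dglucy, Zmat3 and Sesn3.

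The promoters of 24 members were held in the RefSeq table for GRCm38.p6, as windows from 250 bases before to 50 after each annotated start. They were searched on both strands for the p53 consensus decamer, which reads the same on either strand, and p53 binds as a tetramer to a pair of such decamers. It was found in 9 of the 24 members (37.5%) and in 9.55% of all 27025 genes in the table. Many known p53 sites lie further from the start than these windows reach, as in the first intron of Mdm2, so a window with no match says only that these letters are not in it. Matches from members that anchor the results are shown 5′ to 3′ with the decamer in capitals, together with Cdkn1a, which holds 2 decamers 12 bases apart. Only exact matches were searched for, so a decamer with a mismatch stays in lower case. Which decamers p53 binds was not tested.
Mdm2 (chr10:117710925-117710954, minus strand): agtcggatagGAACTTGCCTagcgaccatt
Ccng1 (chr11:40755452-40755481, minus strand): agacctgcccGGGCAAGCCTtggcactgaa
Bax (chr7:45467080-45467109, minus strand): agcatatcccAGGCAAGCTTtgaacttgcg
Ei24 (chr9:36797325-36797354, minus strand): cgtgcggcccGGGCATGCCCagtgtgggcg
Aen (chr7:78895927-78895956, plus strand): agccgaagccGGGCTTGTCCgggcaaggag
Cdkn1a (chr17:29090896-29090947, plus strand): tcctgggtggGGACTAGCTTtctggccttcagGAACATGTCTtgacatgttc

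The decamer lies 186 bases before the start of Mdm2, 185 before Ccng1, 201 before Bax and 10 before Ei24. In Aen it lies 121 bases before one annotated start and 10 after another. In Cdkn1a the first decamer lies 73 bases before the more upstream of 2 starts. None of the 3 risers with a window (Fdxr, Ddit4 and Bbc3) held the decamer, and of the 4 fallers only Aen did. The 8 other matches were in Trp53, Mdm2, Ccng1, Bax, Sesn1, Ei24, Polk and Rps27l, all of which did not pass. A pair of decamers 0 to 13 bases apart was in none of the 24 members and in 0.0740% of genes. The motif TGATGNAA, part of the composite site of ATF4 and C/EBP factors, was searched on both strands and found in 1 member, Polk, and in 4.51% of genes.

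Targets of p53 outside the members were given by a list of 42 further genes. Of 36 tested, 9 rose and 2 fell, with a median log2 fold change of 0.11. The share called was 30.6%, against 24.5% of all genes (12.9% higher, 11.7% lower). Cdkn1a, which encodes the cell cycle inhibitor p21, was at 20.8, 19.5 and 22.2 CPM in DS38 and 10.8, 12.1 and 11.5 CPM in DMSO. It was raised 1.82-fold (log2 fold change 0.87 ± 0.063, SE), more than any of the 30 tested members. Trp53cor1, the long non-coding RNA lincRNA-p21 encoded beside Cdkn1a, was picked here after its values were seen, and it is counted among the 9 risers. It was low, at 0.853, 0.799 and 0.798 CPM in DS38 and 0.389, 0.499 and 0.310 CPM in DMSO (log2 fold change 1.01 ± 0.27; edgeR adjusted p = 0.00714). Sesn2, a sestrin that ATF4 also induces, was at 48.2 ± 0.445 CPM in DS38 and 36.2 ± 1.06 CPM in DMSO, so of the sestrins Sesn2 rose, Sesn3 fell and Sesn1 did not pass. Psrc1, a spindle protein, rose by 24.9%. Gpx1, glutathione peroxidase, and Trp53i11 fell by 0.24 ± 0.041 and 0.12 ± 0.029 on the log2 scale (edgeR adjusted p = 1.747e-04 and 0.00396). With library size as the only scaling, 13 of this list were higher and 2 lower, where 18.6% of all genes were higher and 8.73% lower. Leaving out 1 library in turn gave 6 to 11 higher, against 1640 to 2437 over all genes.

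Upstream of p53, 39 regulators were tested, and 1 rose and 10 fell (median log2 fold change -0.03). The share called, 28.2%, lay near the 24.5% of all genes, of which 12.9% were higher and 11.7% lower. Atm, the kinase that signals double-strand breaks to p53, was at 143, 136 and 147 CPM in DS38 and 208, 195 and 172 CPM in DMSO, and it fell by 0.43 ± 0.046 on the log2 scale (SE), with an edgeR adjusted p of 5.356e-07. Hipk2, a kinase that phosphorylates p53, and Huwe1, a ubiquitin ligase that acts on it, fell by 0.39 ± 0.041 and 0.37 ± 0.045. The fallers ranged in gene model from Npm1 (2665 bases; log2 fold change -0.18) to Huwe1 (23507 bases), with Atm at 10338 and Hipk2 at 8836 bases. Other long fallers were Prkdc (13187 bases), Crebbp (13540 bases) and Ep300 (14273 bases). The remaining fallers were shorter, namely Trp53bp2 (4418 bases), Sirt1 (5331 bases) and Ube4b (7618 bases). The longest regulator of the list, Atr (23629 bases), did not pass (0.10), nor did Cop1 (17516 bases; 0.06). The part of gene length in these differences was not tested. Over all tested genes, the longest of 5 equal length classes held 905 calls lower and 451 higher. With the length correction 2 regulators were higher and 15 lower (2191 and 2393 of 17679 over all genes). Rpl5, a ribosomal protein that binds MDM2, was the riser, at 839 ± 4.09 CPM in DS38 and 793 ± 23.2 CPM in DMSO (edgeR adjusted p = 0.0368). That call was lost with RLE scaling, the length correction, and each of DS38 replicates 1 to 3 and DMSO replicates 1 and 2 left out (edgeR adjusted p = 0.0626 to 0.158). In these fits its log2 fold change was 0.05 to 0.09, against 0.08 with TMM and all libraries, and it was lowest with the length correction. It was also lost with the replicate number as a block (edgeR adjusted p = 0.0701). With library size as the only scaling 7 regulators were higher and 9 lower, where 18.6% of all genes were higher and 8.73% lower. Without DMSO replicate 3 the counts were 4 and 13 (2437 and 2474 of 18349 over all genes).

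Genes that p53 lowers indirectly, through p21 and the DREAM repressor complex, were given by a list of 30. All were tested, and 1 rose and 3 fell (median log2 fold change -0.02), a share called of 13.3% against 24.5% of all genes. Ccnb2, cyclin B2, rose by 0.16 ± 0.036 on the log2 scale. Cdc25a, a phosphatase that activates cyclin-dependent kinases, fell by 0.17 ± 0.032, the helicase subunit gene Mcm5 by 0.14 ± 0.028, and Cdk1 by 0.10 ± 0.028 (edgeR adjusted p = 6.018e-04, 8.273e-04 and 0.00897). With library size as the only scaling 6 were higher and 2 lower, where 18.6% of all genes were higher and 8.73% lower. The length correction gave 1 and 11 (2191 and 2393 of 17679 over all genes). Without DMSO replicate 3 the counts were 2 and 5 (2437 and 2474 of 18349 over all genes).

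A list of 24 ATF4 and integrated stress response genes was also tested. It holds Sesn2, which is thus counted in this list and among the other p53 targets, and does not hold Ddit4. Of 23 tested, 18 rose and 0 fell (78.3% called, against 24.5% of all genes), with a median log2 fold change of 0.20. The list, like the others, was chosen with earlier results of these data known, so its share called may in part reflect that choice. Atf4 was at 272, 277 and 281 CPM in DS38 and 234, 249.96 and 256 CPM in DMSO (log2 fold change 0.16 ± 0.032, SE; edgeR adjusted p = 5.896e-04). Ddit3, which encodes CHOP, rose to 15.7 ± 1.2 CPM in DS38, against 10.8 ± 0.102 CPM in DMSO. Atf5, Cth and Aldh1l2 rose by 0.92 ± 0.043, 0.68 ± 0.052 and 0.41 ± 0.034 on the log2 scale. Trp73 is likewise counted among both the other p53 targets and the upstream regulators, and Chek1 in both the upstream and cell cycle lists. Neither passed. All lists come from 1 contrast with the same DMSO libraries, so they are not independent of one another, and the differences between lists were not tested.

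**Figure D5:**
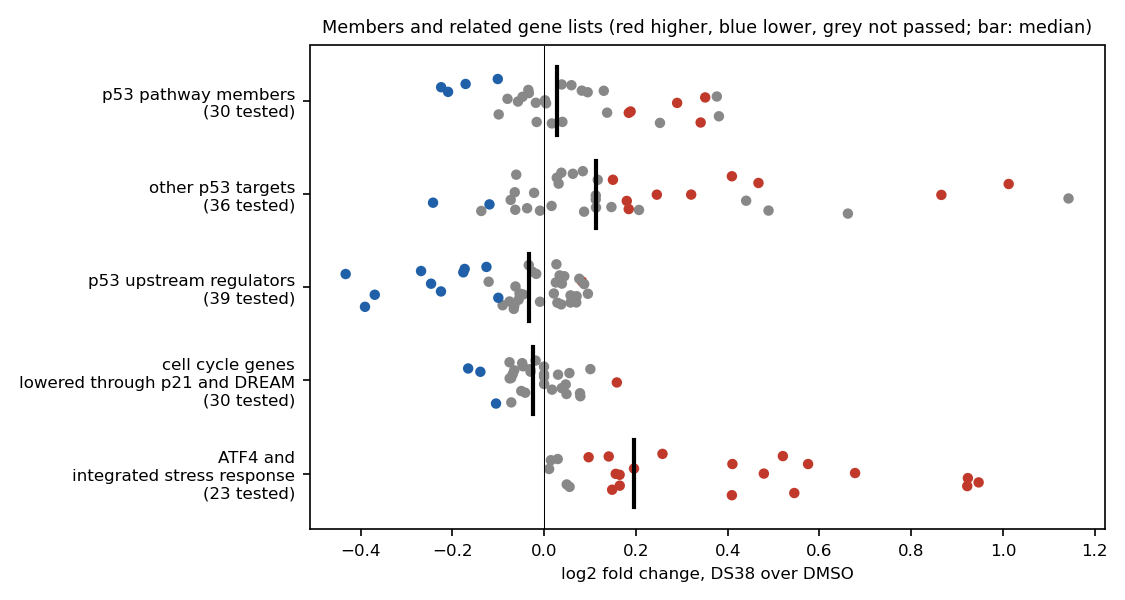
Log2 fold change of DS38 over DMSO for each tested gene of the members and 4 related lists, with red for genes that rose, blue for genes that fell, grey for genes that did not pass and a bar at each median. Medians are 0.03 for members, 0.11 for other p53 targets, -0.03 for upstream regulators, -0.02 for cell cycle genes and 0.20 for ATF4 genes.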

How the data were processed

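Raw counts for 6 libraries, by Ensembl gene and with each gene's length, were deposited by the authors in a single file. The tools named in the submitters' processing notes are featureCounts (Subread 2.0.3), STAR 2.7.9a, edgeR and R 4.1.0, and the builds are GRCm39 and GRCh38.p13, with no role stated. How strand and multi-mapping reads were handled is not given in these sources. RNA was isolated with RNeasy columns and made into libraries with a Kapa mRNA kit, per the labels' protocols.

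Genes were kept by filterByExpr (minimum count 10, total 15), scaled by TMM and tested with edgeR 4.0.16 in R 4.3.3, with group as the sole term and Benjamini-Hochberg adjustment over 17679 genes. Intervals are 95% and rest on the moderated degrees of freedom. TPM came from the deposited counts and lengths. Symbols matched 52083 identifiers. Promoters came from RefSeq, GRCm38.p6. Within-group library pairs differed by more than sampling noise, and DMSO pairs more than DS38 pairs. Chi-square was 2.94 to 3.63 times its degrees of freedom in DS38 and 8.33 to 9.38 times in DMSO. The method was tested on simulated data. Python 3.11.15 and matplotlib 3.10.9 drew the figures.

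The members, lists, tests and alternatives were chosen with earlier results of these data known. Every member is accounted for, with the value in each library for Trp53, Mdm2, Mdm4, each member that passed and the next 3 by p. Of other lists the 3 genes of smallest p in each direction are named, plus Cdkn1a, Sesn2, Atf4 and Ddit3. Trp53cor1 and the regulators named for their length (Npm1, Prkdc, Crebbp, Ep300, Trp53bp2, Sirt1, Ube4b, Atr and Cop1) were chosen after their values were seen. Alternatives were DESeq2 1.42.0, limma-voom (limma 3.58.1), RLE or library size scaling, other filters, a replicate block, thinning, robust dispersion, each library left out, and a length correction added after seeing the data.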

Additional observations from a re-analysis of the deposited data

How the results depend on the processing

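The 9 called members kept their direction in all 16 alternatives, and Btg2, Fdxr, Xpc, Ddit4, Ddb2 and Plk3 also kept their call in each. With library size as the only scaling, 8 members were higher, as were 6 of the cell cycle list and 7 of the upstream list. Over all genes 3289 of 17679 were then higher. The upstream list held 3 higher with limma-voom or robust dispersion, 0 with RLE, 4 with no filter, and 2 after thinning or the length correction. Of 17679 genes, limma-voom called 2229 higher, robust dispersion 2313, RLE 2111 and the length correction 2191. With no filter 2413 of 32369 genes were higher, and after thinning 1974 of 16695. The cell cycle list had 2 higher with the stricter filter or robust dispersion and 11 lower with the length correction. Over all genes the stricter filter gave 1931 of 10604 higher, and the length correction 2393 of 17679 lower. Leaving out 1 library in turn gave 5 to 6 members higher and 2 to 5 lower, 0 to 4 upstream regulators higher, and 1 to 2 cell cycle genes higher and 2 to 5 lower. Over all genes that range was 1640 to 2437 higher and 1549 to 2474 lower.

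Same-numbered libraries did not deviate together (r = 0.049, 0.006 and -0.062 for numbers 1 to 3), and libraries of unlike number had r of -0.082 to 0.077. With 3 libraries a group, this cannot decide whether the numbers mark shared cultures or preparations. With the replicate block, 5 members were higher and 4 lower, as without it, 0 upstream regulators were higher, and over all genes 2108 were higher and 1902 lower, in place of 2272 and 2068.

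Signs turned for some members that did not pass. The log2 fold change of Sesn1 was -0.00369 with DESeq2, -0.00349 with RLE, -0.00057 with the stricter filter and -0.03027 with the length correction. That of Rps27l was -0.00582 with DESeq2, -0.00575 with RLE and -0.00283 with the stricter filter. With library size alone Mdm2 was at 0.01849, Phlda3 at 0.01553, Eda2r at 0.00156 and Ei24 at 0.00022. Perp was at -8e-05 after thinning and Ercc5 at -0.00207 with the length correction. Leaving out 1 library in turn gave -0.00587 to 0.07399 for Ccng1, -0.01239 to 0.03309 for Sesn1, -0.15265 to 0.19914 for Phlda3 and -0.02723 to 0.03119 for Rps27l. None of these values passed, and the cause was not tested. Low counts limit Perp, Phlda3, Tnfrsf10b, Gdf15 and Fas.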
